A study of Mus musculus with 80 samples.

Results

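Insulin acts on the liver through a chain of proteins encoded by the 10 genes described here: Insr, Irs1, Irs2, Pik3r1, Akt1, Akt2, Foxo1, Foxo3, Grb10 and Grb14. They were named for their place in this chain and taken from the deposited count table by symbol, 10 of the 78275 rows listed, and all 10 were among the 21187 genes with enough reads to be tested. The data are RNA-seq profiles of the liver of C57BL/6J mice, an inbred strain without an engineered allele, 8 to 12 weeks old and kept on standard chow. Control mice had food throughout. Fasted mice lost theirs at circadian time (CT) 10, where CT counts the hours of the internal day from the former lights-on. All mice spent 10 days in 12:12 h light and darkness before constant darkness began, and the livers were taken from CT8 to CT44 at intervals of 4 h, from 2 males and 2 females per treatment and time. The 80 libraries therefore hold 4 per treatment and time. The fasted mice of CT8 still had food, and those of CT12 to CT44 had been without it for 2 to 34 h. In fasted livers the hour of the day and the length of the fast advance together. Within the fast only CT12 and CT36, CT16 and CT40, and CT20 and CT44 share an hour of the day, at fasts of different length. At the other times hour and length cannot be told apart.

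When insulin binds the insulin receptor (Insr), the receptor phosphorylates the adaptors IRS1 and IRS2, which recruit phosphoinositide 3-kinase through its regulatory subunit (Pik3r1). The lipid made by this kinase activates AKT1 and AKT2, and AKT in turn phosphorylates the transcription factors FOXO1 and FOXO3 and keeps them out of the nucleus. GRB10 and GRB14 bind the active receptor and dampen it. With little insulin, as in a fast, FOXO proteins are nuclear and switch on genes of glucose production in hepatocytes. RNA levels say nothing of phosphorylation or of where a protein is.

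Sequences upstream of Irs1 and Irs2 are shown first because these paralogs, whose RNA levels moved apart in the fast, carry the same pair of short motifs. Igfbp1, a textbook FOXO target, is given for comparison. The windows are the 250 bases before the transcription start in RefSeq on GRCm38.p6, written in the direction of the gene. Capitals mark the E-box CACGTG, the sequence recognised by the clock factors CLOCK and BMAL1, which reads the same on both strands, and the core CAAAACA of insulin response elements bound by FOXO proteins, which reads TGTTTTG on the other strand. Irs1 lies at chr1:82291440-82291689 (minus strand), Irs2 at chr8:11008930-11009179 (minus strand) and Igfbp1 at chr11:7197537-7197786 (plus strand).
Irs1: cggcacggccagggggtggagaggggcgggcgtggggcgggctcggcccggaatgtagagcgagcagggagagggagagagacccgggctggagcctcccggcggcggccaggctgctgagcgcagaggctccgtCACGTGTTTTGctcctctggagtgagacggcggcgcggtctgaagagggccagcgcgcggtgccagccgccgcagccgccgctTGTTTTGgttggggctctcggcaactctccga
Irs2: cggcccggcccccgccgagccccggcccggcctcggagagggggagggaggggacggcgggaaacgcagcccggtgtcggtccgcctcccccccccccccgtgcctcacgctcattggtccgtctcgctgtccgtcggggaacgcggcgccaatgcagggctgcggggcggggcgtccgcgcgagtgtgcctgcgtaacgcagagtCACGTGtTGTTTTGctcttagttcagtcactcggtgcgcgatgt
Igfbp1: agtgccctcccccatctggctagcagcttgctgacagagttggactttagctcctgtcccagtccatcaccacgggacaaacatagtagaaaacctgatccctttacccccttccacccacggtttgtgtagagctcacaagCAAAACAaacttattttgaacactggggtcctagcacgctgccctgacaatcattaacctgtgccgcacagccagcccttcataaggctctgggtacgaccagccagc

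In Irs2 the E-box spans bases -44 to -39 before the start and the core bases -37 to -31, with 1 base between them. The Irs2 gene start in GENCODE M21, chr8:11008458, lies downstream of this RefSeq start, so these distances hold for RefSeq alone. In Irs1 the E-box spans -115 to -110, overlaps a core at -111 to -105, and a further core lies at -32 to -26. The Igfbp1 window holds a core at -108 to -102 and no E-box. Among other FOXO targets read, G6pc1 (named G6pc there) held a core at -174 to -168, and Pck1 and Ppargc1a held neither core nor E-box. Windows were on hand for 9 members, all but Insr, 15 windows in all. Among these members the E-box and the core each occurred in 2, Irs1 and Irs2, which have 1 window each. By window, the unit of the shares over all windows, this is 2 of 15. Akt1 held the FOXO motif GTAAACA, which on the other strand reads TGTTTAC, at -161 to -155, and no member window held TGACGTCA, the full cAMP response element. Of 32851 windows of the same length, 6.02% held the E-box, 5.56% the core, 3.17% GTAAACA and 1.55% TGACGTCA. Both E-box and core stood in 97 windows (0.295%), and 7 (0.021%) held them within 2 bases of each other or overlapping, a distance chosen after the Irs1 and Irs2 windows had been read. These are matches of letters, not measured binding.

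The depth of the libraries ranged from 25534901 to 59927771 counts (median 42303883), and no member had fewer than 72 counts in any library. Library titles and detailed labels differ in sex for 40 libraries and in treatment for 40. The titles were followed, and Xist, transcribed from the inactive X, and the Y-linked Ddx3y matched that sex in each of the 80. The labelled tissue carried its markers: 5 hepatocyte genes (Alb, Ttr, Apoa1, Serpina1a, Tat) summed to between 54500 and 105000 CPM (counts scaled to a common library size) in controls and between 67700 and 125000 in fasted livers, with 3 higher and 1 lower in the fast. Of the Kupffer cell markers 5 of 6 were lower with fasting (summed level 184 to 666 CPM in controls, 126 to 405 in fasted livers), as were 4 of 5 cholangiocyte markers (24.6 to 66 against 6.78 to 50.3), 3 of 5 stellate cell markers, with 1 higher (178 to 334 against 160 to 336), 2 of 5 sinusoidal endothelial markers, with 2 higher (215 to 316 against 216 to 347), 2 of 4 lymphocyte markers (0.712 to 5.67 against 0.409 to 6.86) and 2 of 5 red cell markers (53.4 to 287 against 33 to 271). Of the adipocyte markers 1 of the 2 tested rose, Cidec, from a mean of 1.43 to 81.8 CPM. Adipoq stayed at or below 0.612 CPM, and Plin1 and Lep had too few reads to be tested. The summed level of this list (0.0862 to 4.19 against 3.29 to 281) was thus mostly that of Cidec. None of the 5 exocrine pancreas markers passed the test (0 to 10.8 against 0 to 0.197). By the same test 29.5% of all genes were higher and 32.9% lower with fasting. No marker gene was at 0 in all libraries, and the part of other cell types in the members' values was not tested. In whole liver, fewer cells of a type and less RNA per cell cannot be told apart. Some libraries stand apart. In control CT8 female 2, Rn18s-rs5, a ribosomal RNA gene, took 31.3% of the counts against 4.88% in the next library. Fasted CT40 female 2 had a Sesn1 level of 233 CPM against 11.7 to 12.2 in its group. Fasted CT44 female 1 was also high in Sesn1, at 76.7 CPM against 10.1 to 18.8 in its group, and no fit left out that library alone. The contrasts of the mean fasting effects do not use CT8 libraries in their contrast, and the values that changed without fasted CT40 female 2 are named with them.

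The members fell into genes that rose with the fast and genes that fell. Averaged over CT12 to CT44 and both sexes, Irs2, Foxo1, Insr and Grb14 rose, Pik3r1, Grb10, Akt1 and Akt2 fell, and Irs1 and Foxo3 did not pass the test. Thus 8 of 10 members were called at an adjusted p under 0.05 by edgeR's quasi-likelihood test, 4 in each direction, where 62.5% of all 21187 genes were called, 29.5% higher and 32.9% lower. The median effect was 0.04 on the log2 scale over the members and -0.02 over all genes tested. A fasting effect of some size was therefore common in these livers, and the members differed mainly in its direction, size and time.

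**Figure D1:**
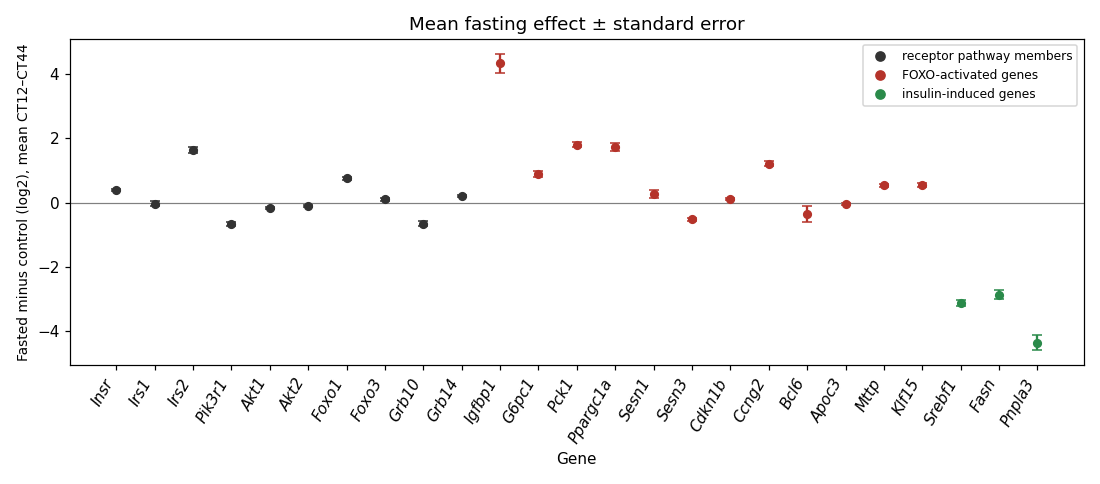
Mean fasting effect over CT12 to CT44 on the log2 scale, fasted minus control, with its standard error from edgeR (36 livers per treatment), for the 10 members (black), FOXO-activated genes (red) and insulin-induced genes (green). Among the members Irs2 lies highest at 1.63 and Pik3r1 and Grb10 lowest at -0.65, inside the range from Igfbp1 at 4.34 to Pnpla3 at -4.36.

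Levels per length, which can be compared between genes, changed their order with the fast. In control livers from CT12 to CT44, in CPM per kilobase of exon (mean and SD over 36 libraries), Akt1 stood at 16.5 ± 2.38, Akt2 at 13.6 ± 0.485, Insr at 12.6 ± 1.27 and Pik3r1 at 10.2 ± 2.44. Foxo3 followed at 8.58 ± 2.01, Grb14 at 6.63 ± 1.18, Foxo1 at 5.35 ± 1.4 and Irs2 at 5.2 ± 2.78, then Irs1 at 3.5 ± 1.03 and Grb10 at 0.733 ± 0.306. Neighbours in this order lay within the larger of their SDs of each other, except Akt1 above Akt2 and Irs1 above Grb10. In fasted livers Insr (16.5 ± 1.86) and Irs2 (16 ± 8.5) stood highest, ahead of Akt1 (14.6 ± 1.84), Akt2 (12.7 ± 0.723), Foxo3 (9.39 ± 3.01), Foxo1 (9.15 ± 2.67), Grb14 (7.6 ± 1.37), Pik3r1 (6.69 ± 2.41), Irs1 (3.49 ± 1.36) and Grb10 (0.459 ± 0.173). Here the gaps between Akt1 and Akt2, Akt2 and Foxo3, Pik3r1 and Irs1, and Irs1 and Grb10 exceeded the larger SD. Irs2 thus passed from a level near that of Foxo1 to the level of the receptor, and Pik3r1 from the upper to the lower part of the list.

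Before food removal no member was called. At CT8, 1.33% of all genes (282) were called and 0 of 10 members, with 0 at an unadjusted p under 0.05 in edgeR and 0 in DESeq2, which also called 0. The effects at CT8 lay within 0.23 on the log2 scale in either direction. Without female replicate 1, the number of all genes called at CT8 was 2123, and Insr was called at 0.27 (adjusted p = 0.0369).

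Over the 9 times after food removal, 43 of the 90 pairs of member and time were called (47.8%), 26 higher and 17 lower. The 4 fasted and 4 control livers did not overlap in 38 pairs (42.2%), where 21.1% of such pairs did not overlap over all genes. At CT12, after 2 h without food, 1.6% of all genes were called and 1 member, Irs2. At CT16, 6 members were called beside 23.4% of all genes, at CT20 6 beside 36.6%, at CT24 6 beside 24.1%, and at CT28 4 beside 21%. At CT32, in the subjective day after 22 h without food, 3 members were called beside 17.7% of all genes. At CT36, 6 members were called beside 26.8%, at CT40 6 beside 39.9% and at CT44 5 beside 39.4%. The count over all pairs was 26 without male replicate 1 and at most 37 without any other replicate, each of which leaves 3 livers in a group.

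**Figure D2:**
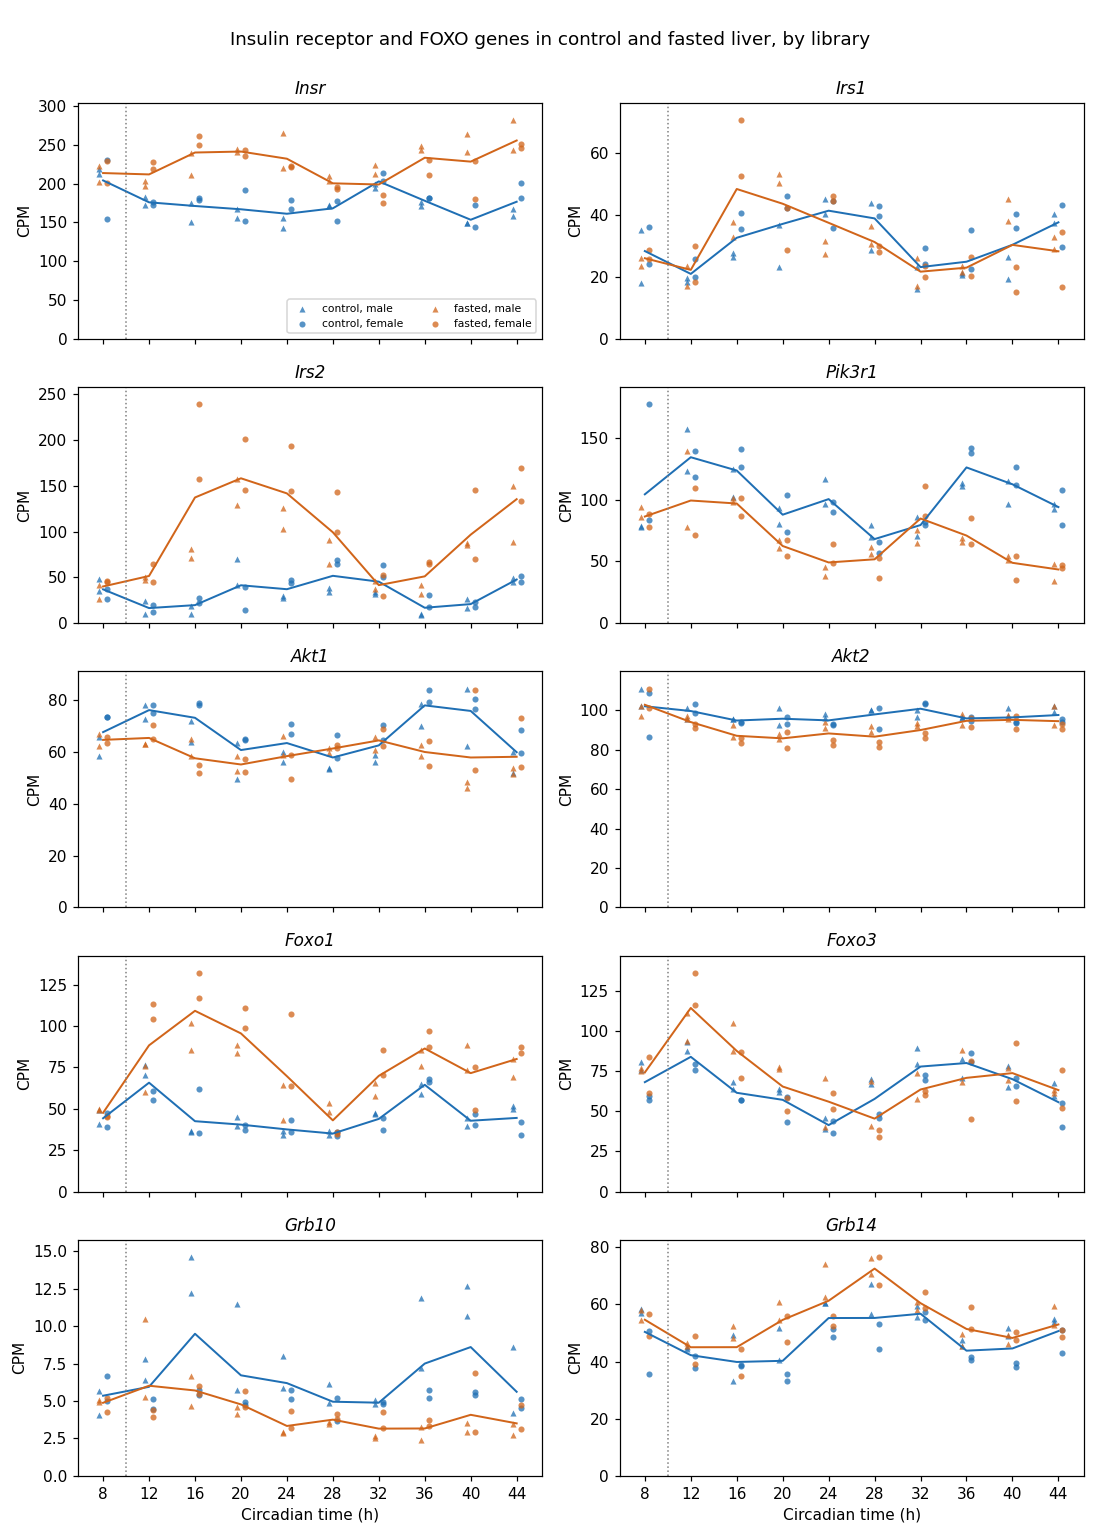
CPM of each member (TMM-scaled) in each of the 80 livers against circadian time in h, control in blue and fasted in orange, males as triangles and females as circles, with lines through the means of 4 livers and a dotted line at food removal (CT10). Irs2 and Insr lie higher and Pik3r1 lower in fasted livers at most times, and their groups come together at CT32.

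Insr (ENSMUSG00000005534.11, GRCm38 chr8:3122061-3279617, minus strand) encodes the receptor itself. At CT20 the 4 control livers held 156, 168, 152 and 192 CPM (males, then females) and the 4 fasted livers 245, 241, 236 and 244. At CT32 the control livers held 194, 200, 214 and 204 and the fasted livers 212, 224, 175 and 185. The groups were apart at the first of these times and mixed at the second, where the females were the lower fasted livers. Fasting raised Insr 1.31-fold over all times (0.39 ± 0.03 SE on the log2 scale, adjusted p = 2.84e-16, edgeR). No fasted liver overlapped the controls at 8 of 9 times, and 7 of these were called. At CT12 the effect was 0.27 (adjusted p = 0.105) although the groups did not overlap, and at CT32 it was -0.03 (adjusted p = 0.851). The highest effect was 0.57 at CT40. The calls at CT28 and CT36 were lost without male replicate 1, and that at CT28 also without male replicate 2 or female replicate 2 and with no filter on low counts (adjusted p = 0.292).

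Irs1 (ENSMUSG00000055980.3, chr1:82233101-82291416, minus strand), the adaptor that is shared with muscle and fat, did not pass the test in the mean. Controls ranged from 16 to 46.2 CPM with a median of 32.4 and fasted livers from 15.1 to 70.8 with a median of 29.5. The groups overlapped at all 9 times. The mean effect was -0.03 ± 0.07 (adjusted p = 0.73), and the effect at single times lay between -0.42 at CT44 and 0.53 at CT16 (adjusted p = 0.0503), none called. On the opposite strand Irs1 shares 2822 exonic bases with the gene Gm9747, and the strand setting of the counting is not given in the sources used here.

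Irs2 (ENSMUSG00000038894.8, chr8:10984681-11008458, minus strand), the adaptor best known in liver for its rise in the fasted state, changed most of the 10. At CT12 the control livers held 24, 9.52, 19.6 and 12.3 CPM and the livers fasted for 2 h already 46.7, 50.1, 44.5 and 64.5. At CT16 the control livers held 10.4, 18.7, 22.1 and 27.1 and the fasted livers 70.9, 81.2, 158 and 239. Each fasted liver lay above each control at both times, and at CT16 both fasted females lay above both fasted males. The effect was 1.65 ± 0.27 at CT12 (adjusted p = 0.000325) and 2.69 ± 0.28 at CT16 (adjusted p = 1.13e-09). It declined through 2.03 at CT20, 1.95 at CT24 and 0.97 at CT28, was -0.07 at CT32 (adjusted p = 0.893), and stood again at 1.69 at CT36, 2.22 at CT40 and 1.5 at CT44. At CT32 the control livers held 32.1, 34.4, 50.5 and 63.9 CPM and the fasted livers 45.8, 37.4, 29.8 and 52.7, so that after 22 h without food the groups were mixed. The 1 other time with overlap was CT28. Over all times the level rose 3.09-fold (1.63 ± 0.09, adjusted p = 2.15e-20). Without male replicate 2 the CT12 effect was 1.37 and no longer called (adjusted p = 0.175), and without male replicate 1 the CT28 effect was 0.79 (adjusted p = 0.16). Irs2 shares 162 exonic bases with 9530052E02Rik on the opposite strand.

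The balance of the adaptors changed. The median ratio of Irs2 to Irs1 in CPM was 0.977 in controls (range 0.303 to 3.04) and 2.87 in fasted livers (1.26 to 10.2). It was highest at CT44, with a median of 4.49, and at CT32 the medians were 2.12 in controls and 1.97 in fasted livers. These ratios are counts per library and not corrected for length.

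Pik3r1 (ENSMUSG00000041417.16, chr13:101680563-101768217, minus strand), the p85 alpha regulatory subunit of phosphoinositide 3-kinase, fell. At CT40 the control livers held 115, 96.4, 126 and 112 CPM and the fasted livers 54.5, 51.4, 54.4 and 34.7. At CT44 the control livers held 96.3, 92.2, 108 and 79.1 and the fasted livers 47.7, 33.7, 44.7 and 47.3. No fasted liver reached a control at either time. The mean effect was -0.65 ± 0.06 (1.57-fold lower, adjusted p = 1.37e-13), with the lowest values at CT24 (-1.05), CT40 (-1.21) and CT44 (-1.12). At CT32 it was 0.07 (adjusted p = 0.831). The groups did not overlap at 6 of 9 times and 5 times were called, of which CT20 was lost without male replicate 1, male replicate 2 or female replicate 1.

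The AKT kinases fell by small amounts. Akt1 (ENSMUSG00000001729.15, chr12:112653821-112674884, minus strand) ranged from 49.7 to 84.4 CPM in controls (median 66.6) and from 45.9 to 83.8 in fasted livers (median 59.3). Its mean effect was -0.17 ± 0.03 (1.12-fold lower, adjusted p = 1.3e-05), and it was called lower at CT16 (-0.35), CT36 (-0.38) and CT40 (-0.41). Each of these calls was lost without male replicate 1, and that at CT40 also without female replicate 1 (adjusted p = 0.0742). Akt2 (ENSMUSG00000004056.17, chr7:27591552-27640826, plus strand), the main AKT of insulin action in liver, was the steadiest member, at 90.8 to 104 CPM in controls (median 96.4) and 80.7 to 102 in fasted livers (median 91.5). Its mean effect of -0.10 ± 0.02 (1.07-fold lower, adjusted p = 3.72e-06) was below 0 at all 9 times, and it was called at CT20 (-0.16), CT28 (-0.18) and CT32 (-0.16). These 3 calls were lost without either male replicate, without female replicate 1 and with no filter on low counts (adjusted p of 0.472, 0.406 and 0.615), and that at CT32 also without female replicate 2 (0.0518). Its SE was the lowest of the 10 members.

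Foxo1 (ENSMUSG00000044167.7, chr3:52268336-52353221, plus strand), the FOXO factor best known for driving hepatic glucose production, rose. At CT16 the control livers held 36.6, 36.2, 62.1 and 35.2 CPM and the fasted livers 102, 85.7, 117 and 132. At CT20 the control livers held 39.7, 44.9, 37.1 and 40.1 and the fasted livers 88.7, 83.4, 111 and 99. All fasted livers lay above all controls, also above the control CT16 female that stood apart from its group. The mean effect was 0.76 ± 0.04 (1.69-fold higher, adjusted p = 2.11e-19), with its highest value at CT16 (1.36 ± 0.14) and its lowest at CT28 (0.27, adjusted p = 0.153). It was above 0 at all 9 times and called at 7, of which CT36 was lost without male replicate 1 or male replicate 2. At CT32, where Irs2, Insr and Pik3r1 were not called, Foxo1 was (0.67, adjusted p = 0.000301). Foxo1 shares 674 exonic bases with Gm20402 on the opposite strand.

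Foxo3 (ENSMUSG00000048756.12, chr10:42181841-42276755, minus strand), a FOXO factor linked to autophagy and stress resistance, did not pass the test in the mean. Controls ranged from 36.5 to 93 CPM (median 66.3) and fasted livers from 33.9 to 136 (median 69). Its effect of 0.11 ± 0.05 had an adjusted p of 0.0611, and between 0.013 and 0.405 over the 13 alternatives, 4 of which called it. It was called higher at CT16 (0.51) and CT24 (0.44), and at CT28 and CT32 the effects were -0.35 and -0.29, not called. Both calls were lost without male replicate 1 and without male replicate 2, that at CT16 also without female replicate 2 (adjusted p = 0.104), and that at CT24 also without female replicate 1 (0.261) and with limma-voom (0.0563). The median ratio of Foxo1 to Foxo3 in CPM was 0.719 in controls (range 0.514 to 1.18) and 1.12 in fasted livers (0.643 to 2.22).

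The inhibitory adaptors moved in opposite directions. Grb14 (ENSMUSG00000026888.15, chr2:64912476-65024987, minus strand), which binds the kinase domain of the receptor, ranged from 33.1 to 67 CPM in controls (median 48.2) and from 35.1 to 76.5 in fasted livers (median 52.3). Its mean effect was 0.20 ± 0.03 (1.15-fold higher, adjusted p = 1.41e-06), above 0 at all 9 times and called at CT20 (0.45) and CT28 (0.40), while the groups overlapped at each time. The CT28 call was lost without male replicate 1 or female replicate 2. Grb10 (ENSMUSG00000020176.18, chr11:11930508-12038683, minus strand), its imprinted relative, was the least abundant member, at 3.66 to 14.6 CPM in controls (median 5.52) and 2.38 to 10.5 in fasted livers (median 3.78). Its mean effect was -0.65 ± 0.07 (1.57-fold lower, adjusted p = 1.08e-10), and it was called at 6 of 9 times, with the lowest effect at CT36 (-1.19). Of these calls CT36 and CT40 held without each replicate in turn. In CPM, the median ratio of Grb14 to Grb10 was 7.52 in controls and 14.6 in fasted livers.

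**Figure D3:**
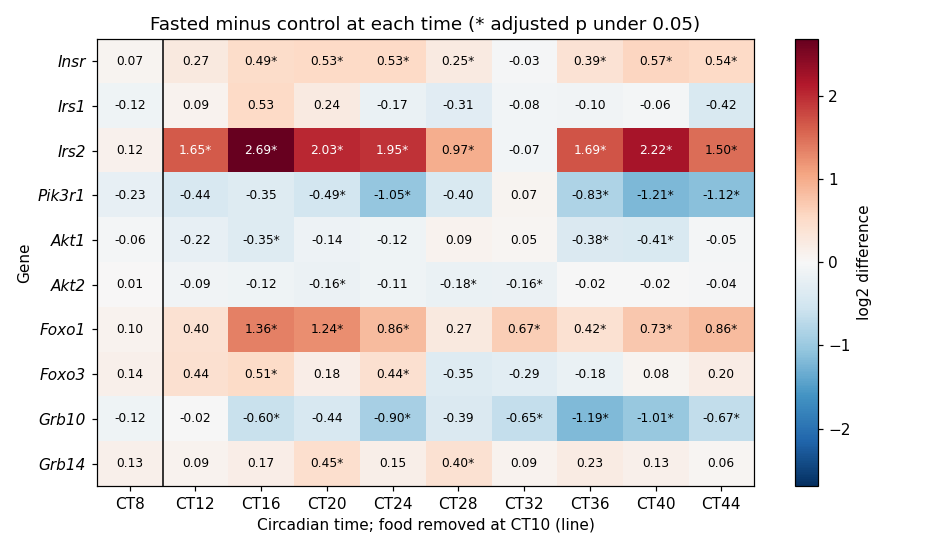
Fasting effect of each member at each time as a coloured and numbered cell, fasted minus control on the log2 scale (4 livers per treatment and time), with an asterisk for an adjusted p under 0.05 and a line at food removal. Irs2 runs from 2.69 at CT16 to -0.07 at CT32 and back to 2.22 at CT40, while Pik3r1 goes from -1.05 at CT24 to 0.07 at CT32 and -1.21 at CT40.

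The size of the effect differed between times for 6 of 10 members, where this held for 33.7% of all genes (edgeR, joint test of the 9 times with 8 degrees of freedom). These were Irs2 (adjusted p = 1.5e-05), Foxo1 (5.32e-05), Pik3r1 (0.000337), Insr (0.00105), Foxo3 (0.00533) and Akt1 (0.0126). Irs1 (0.143), Grb14 (0.151), Akt2 (0.366) and Grb10 (0.0586) did not pass. The call of Irs2 held without each replicate in turn. Without male replicate 1 it was the 1 member called, and 3 members were called without male replicate 2. With fasted CT40 female 2 left out Grb10 was called (adjusted p = 0.00901).

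In the control livers, which are the fed ones, a 24 h rhythm was called in 9 of 10 members, all but Akt2, and in 41.8% of all genes (edgeR, cosine and sine of a 24 h period, 40 livers). Peaks were spread over the day: Irs2 at CT1.69, Grb14 at CT3.57, Insr at CT7.95, Foxo3 at CT11.6, Foxo1 at CT12.6, Akt1 at CT13.3, Pik3r1 at CT14.3, Grb10 at CT16.1 and Irs1 at CT23.3. The rhythm of Irs2 was the widest, with a difference between peak and trough of 1.7 on the log2 scale, against 0.88 for Irs1, 0.81 for Foxo3, 0.70 for Foxo1 and for Pik3r1, 0.68 for Grb10, 0.47 for Grb14, 0.42 for Akt1 and 0.24 for Insr. In means over 4 control livers, Irs2 went from 16.3 ± 6.61 CPM at CT12 to 51.6 ± 17.6 at CT28, and Foxo1 from 35 ± 1.31 at CT28 to 65.8 ± 9.5 at CT12. The fed rhythm of Insr was lost without male replicate 1 (adjusted p = 0.127) or male replicate 2 (0.106) and in females alone (peak-to-trough difference 0.13, 0.602), and that of Grb10 without male replicate 2 (0.0502).

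In fasted livers, with a linear change over the fast allowed for, a 24 h component was called in 7 members and in 47.1% of all genes. Akt1 (adjusted p = 0.104), Akt2 (0.057) and Grb10 (0.0589) were not called. The rhythm differed between fed and fasted livers in 6 of 10 members, and in 23.2% of all genes (72 livers of CT12 to CT44). This test takes the peak and the size of the 24 h component together, and a shift of the peak alone was not tested. Its adjusted p stands in brackets beside the fitted peaks. In the joint model the fitted peak of Insr went from CT8 to CT18.8 (adjusted p = 0.000133), that of Irs2 from CT1.52 to CT21.4 (0.000125), that of Foxo1 from CT12.3 to CT16.1 (0.0132), that of Foxo3 from CT11.4 to CT14.1 (0.0238), that of Pik3r1 from CT14.7 to CT11.3 (0.0201) and that of Akt1 from CT13.4 to CT8.03 (0.00703). The fitted peaks of Irs2 and Pik3r1 thus lay earlier in the fast and those of Foxo1 and Foxo3 later. For Akt1 no rhythm was called in fasted livers, so its fasted peak is uncertain. Its peak-to-trough difference was 0.41 in fed and 0.19 in fasted livers. The peak-to-trough difference of Irs2 was 1.66 in fed and 1.89 in fasted livers in this model.

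**Figure D4:**
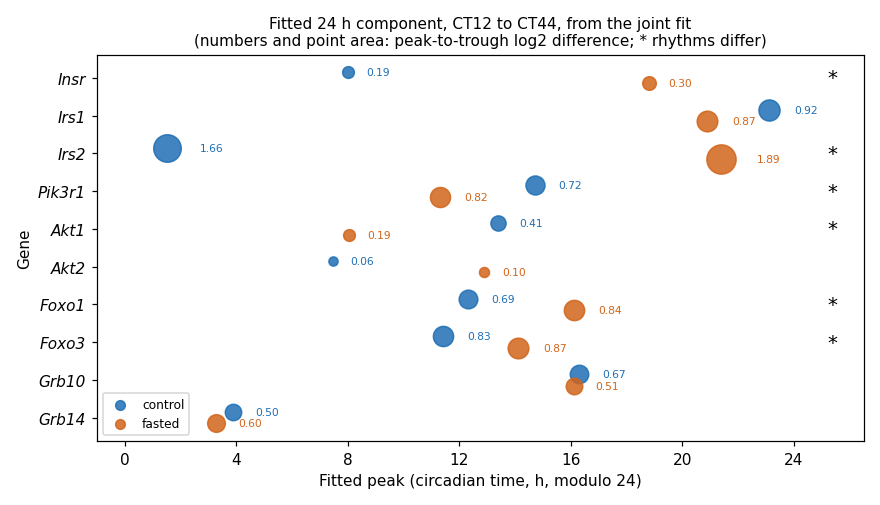
Fitted peak of the 24 h component of each member in circadian time, control in blue and fasted in orange, from the joint fit of CT12 to CT44, with the peak-to-trough log2 difference as point area and number and an asterisk where the rhythms differ (adjusted p under 0.05). Insr peaks at CT8 in controls and CT18.8 in fasted livers, and Grb14 at CT3.9 and CT3.28.

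Irs1, Grb10, Grb14 and Akt2 were not called in the test of the rhythm difference (adjusted p of 0.252, 0.887, 0.562 and 0.173). Irs1 peaked at CT23.1 in fed and CT20.9 in fasted livers, and Grb14 at CT3.9 and CT3.28. Without male replicate 1 only Insr and Irs2 of the 10 kept a called difference. That of Foxo1 was also lost without male replicate 2 (adjusted p = 0.0616), and those of Pik3r1 (0.215) and Foxo3 (0.0778) without female replicate 1.

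Males and females differed in 2 members' response to the fast, Grb10 and Insr, where 12.4% of all genes differed. In control livers of CT16 the 2 males held 14.6 and 12.2 CPM of Grb10 and the 2 females 5.41 and 5.76. At CT40 the control males held 10.7 and 12.7 and the control females 5.62 and 5.4. The fasted livers of CT40 held 2.95 and 3.55 in males and 2.93 and 6.89 in females. The high levels were thus mostly those of fed males, at some times and not at others. A fasted male reached 10.5 CPM at CT12, above the highest control of that time at 7.81. Fed females stayed within 3.66 to 5.76 CPM from CT12 to CT44. Over those times fed males had a mean of 8.24 ± 3.23 (SD, n = 18), fasted males 4.01 ± 1.96, fed females 5.08 ± 0.532 and fasted females 4.32 ± 1.1. The fasting effect on Grb10 was -1.06 ± 0.10 in males and -0.25 ± 0.10 in females, a difference of 0.81 ± 0.15 (female minus male, adjusted p = 0.000214). This difference lay between 0.66 and 0.95 under the 11 alternatives and was called in each. Among control females alone the rhythm of Grb10 had an adjusted p of 0.712, but whether the rhythm differed by sex was not tested.

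**Figure D5:**
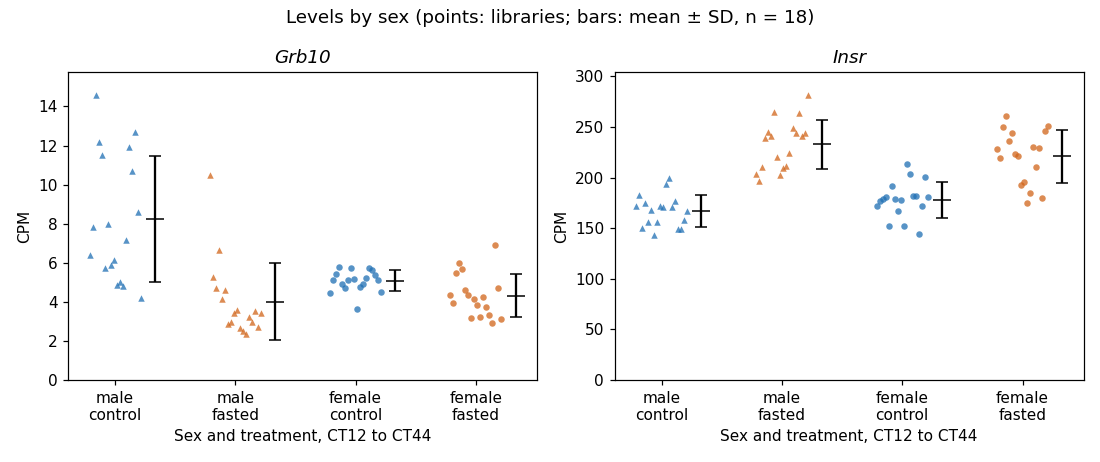
CPM (TMM-scaled) of Grb10 and Insr in each liver of CT12 to CT44 by sex and treatment, with bars for the mean ± SD (n = 18). Grb10 reaches 14.6 CPM in control males while control females lie at or below 5.76, and Insr is higher in fasted livers of both sexes.

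For Insr the effect was 0.48 ± 0.04 in males and 0.31 ± 0.04 in females, a difference of -0.17 ± 0.06 (adjusted p = 0.0408). Fed males had a mean of 167 ± 15.6 CPM and fasted males 233 ± 24.1, against 178 ± 17.8 and 221 ± 26 in females. The call was lost without male replicate 1 (-0.12, adjusted p = 0.559), without male replicate 2 (-0.20, 0.25), without female replicate 2 (-0.15, 0.0855), without fasted CT40 female 2 (-0.15, 0.0808) and with no filter on low counts (-0.18, 0.226), and in all it was lost in 6 of 11 alternatives. Foxo1 (difference 0.25, adjusted p = 0.0596) and Irs1 (-0.38, 0.0597) lay just outside the threshold. The effect on Irs1 was 0.16 ± 0.10 in males and -0.22 ± 0.10 in females. For Irs2 the effects were 1.55 in males and 1.70 in females (difference 0.15 ± 0.18, adjusted p = 0.674).

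Levels in fed livers differed by sex in 5 of 10 members, beside 39.2% of all genes. Females were higher in Irs1 (0.32 ± 0.09 on the log2 scale, means 34.8 and 28.4 CPM in 20 females and 20 males) and Akt1 (0.18 ± 0.04, 71.6 and 63.4). They were lower in Grb10 (-0.54 ± 0.10, 5.16 and 7.9), Grb14 (-0.25 ± 0.04, 43.8 and 52.1) and Foxo3 (-0.24 ± 0.07, 60.1 and 70.4). Both inhibitory adaptors were thus lower in fed females. The calls of Akt1 (without male replicate 2) and of Foxo3 (without male replicate 1 or female replicate 1) were lost with 1 replicate left out.

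Other genes of the pathway were taken from lists written by role. Over these lists 56 of 58 genes were tested, of which 31 rose, 15 fell and 10 did not pass. The median effect was 0.14 against -0.02 over all genes. Of all genes tested 29.5% were called higher and 32.9% lower, the shares to set beside each list. Among 8 receptor partners and adaptors tested, 4 rose and 4 fell, including Igf1r, the receptor of insulin-like growth factor (0.36 ± 0.08), the adaptors Sh2b1 (0.31 ± 0.02) and Sh2b2 (-0.60 ± 0.08), and the exchange factor Sos1 (0.27 ± 0.04). Of 7 phosphoinositide 3-kinase subunits 4 rose and 2 fell. The catalytic subunit Pik3ca rose (0.31 ± 0.03, from 35.8 to 44.8 CPM), as did the class II kinases Pik3c2a (0.45) and Pik3c2g (0.75), while Pik3r3, a regulatory relative of Pik3r1, fell (-1.17 ± 0.08, from 2.6 to 1.16 CPM). Pik3r2 was at 22.6 and 23.1 CPM and did not pass.

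Around AKT and mTOR 8 of 13 genes rose and 2 fell. Pdpk1, the kinase that activates AKT, rose by 0.50 ± 0.02 (43.1 to 61.8 CPM), Mtor by 0.47 ± 0.03, and Gsk3a, a glycogen synthase kinase that AKT inhibits, by 0.47 ± 0.02, whereas Mlst8, a subunit of both mTOR complexes, fell (-0.46 ± 0.04). Of 12 inhibitors and phosphatases 6 rose and 3 fell. Trib3, a pseudokinase that binds AKT, went from 4.25 to 9.35 CPM (1.60 ± 0.12), and Socs3, an inhibitor of cytokine and insulin signalling, rose by 0.46 ± 0.12. In females alone the calls of Socs3 (0.25, adjusted p = 0.134) and Igf1r (0.31, 0.0553) were lost. The receptor phosphatase Ptprf fell from 257 to 141 CPM (-0.92 ± 0.04), and Socs1 fell from 0.55 to 0.311 (-0.90 ± 0.16). Foxo4, the 1 further FOXO factor with enough reads, had an effect of -0.05 ± 0.03 (adjusted p = 0.121).

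Several genes downstream of FOXO and insulin moved further than any member. Of 12 liver genes that FOXO factors are known to activate 9 rose, 1 fell and 2 did not pass, with a median of 0.55. Over all genes tested 29.5% rose and 32.9% fell. Igfbp1, a secreted binding protein of insulin-like growth factors, went from 34.4 to 903 CPM (4.34 ± 0.30, and 3.51 to 5.18 over 13 alternatives). The median in fasted livers was 431 CPM. At CT40 the fasted mean of 1830 CPM rested on female 2 at 6300, against 544 in the next liver. Igfbp1 was not called at CT12 (2.63, adjusted p = 0.0962, edgeR) or CT28 (1.87, 0.0968), and was called at the other times after food removal. The gluconeogenic enzymes Pck1 (1590 to 4920 CPM, 1.80 ± 0.08) and G6pc1 (338 to 636, 0.89 ± 0.10) rose, as did their coactivator Ppargc1a (11.8 to 41.8, 1.73 ± 0.12). Pck1 was called at each time after food removal. G6pc1 was called at CT16, CT20, CT24 and CT40 alone, and its effect was -0.09 at CT28 and 0.29 at CT32. Ccng2, a cyclin of resting cells, rose by 1.22 ± 0.07, the factor Klf15 by 0.56 ± 0.06, the lipoprotein assembly protein Mttp by 0.54 ± 0.04 and the cell cycle inhibitor Cdkn1b by 0.12 ± 0.03, a call lost in females alone (0.08, adjusted p = 0.106). Sesn1, a stress-induced regulator of mTOR, was called at 0.28 ± 0.12, but without fasted CT40 female 2 its effect was 0.10 (adjusted p = 0.318). The call was also lost with limma-voom (0.18, adjusted p = 0.315), without male replicate 1 (0.32, 0.179) and without male replicate 2 (0.21, 0.416). Its relative Sesn3 fell from 49.8 to 35.5 CPM (-0.52 ± 0.04). Bcl6 (-0.35 ± 0.26) and Apoc3 (-0.04 ± 0.04) did not pass, although Bcl6 was called lower in males alone (-1.02, adjusted p = 0.015).

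The 3 insulin-induced genes examined all fell, with a median of -3.13. Srebf1, the factor of fat synthesis, went from 485 to 72.3 CPM (-3.13 ± 0.10) and its target Fasn, fatty acid synthase, from 2090 to 324 (-2.86 ± 0.13). Pnpla3, a lipid droplet protein, went from 12.1 to 0.374 CPM (-4.36 ± 0.24). These falls exceeded that of every member of the pathway described above. The 3 RNAs checked as known to rise in the fasted liver did so, Fgf21 (3.95), Pdk4 (2.20) and Cpt1a (1.46).

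Genes whose course was most like that of a member were sought over the 20 means of treatment and time, among 11576 genes with a mean log2 CPM of at least 1. For Irs2 these were Zfp622 (Pearson's r = 0.946), Prxl2c (0.945) and Ackr2 (0.944), and for Foxo1 Nr1i2 (0.969), Tnfrsf1b (0.968) and Cebpb (0.960). For Insr they were Slc25a47 (0.959), Tmem245 (0.958) and Ppm1a (0.956), and for Irs1 Zscan20 (0.913), Dpp9 (0.899) and Ube2u (0.896). The 20 means share the fasting response and the time of day, so these values describe likeness of course alone.

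Exon usage was tested last. Exon bins were named by gene and number without coordinates, and a gene was called when the share of a bin in it changed (edgeR diffSpliceDGE, Simes' method). This was so for 3 of 10 members, beside 14.3% of genes. In Insr, bin 17 went from 0.241% to 0.341% of the gene's bin counts (0.49 on the log2 scale relative to the gene, adjusted p = 8.55e-05), from a mean of 26 to 41.8 counts. In Grb14, bin 19 went from 0.138% to 0.248% (0.95, adjusted p = 0.000255), a mean of 6.67 and 12.6 counts, and bin 22 from 1.21% to 1.55% (0.35, 0.00181). In Foxo3, bin 6 went from 0.629% to 0.872% (0.54, 0.0341), and the gene's call was lost in 8 of 9 alternatives. The call of Insr was lost without male replicate 1 (adjusted p = 0.0704), and that of Grb14 without male replicate 2 (0.24) or female replicate 1 (0.0958). Each of these bins held under 2% of its gene. By the F-test per gene in place of Simes' method Grb10 was called as well (adjusted p = 0.000848). Of the 80 columns, 3 of fasted CT40 were matched best by another library, so sex was not used at that time.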

How the data were processed

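Poly(A) RNA from the liver of 80 mice was sequenced from both ends as stranded libraries. Per the labels, Trimmomatic, HISAT2 and DESeq2 were named in the submitters' processing notes with the build GRCm39, and the counting program and its strand setting are not given in the sources used here. The authors deposited raw counts per gene and raw counts per exon bin as whole numbers, without normalization, and a table of the gene counts divided by library factors, which was not used. Unnamed rows of the exon table, 8.28% to 25.9% of each column, were left out. Columns of samples from other series numbered 0. Positions are those of GENCODE M21 on GRCm38, matched by symbol and not converted.

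The members and gene lists were chosen with earlier results of these data known. The article is a review and gives no methods, so the tests follow the study design. Groups were taken from the library titles, and each library was counted as 1 mouse. The labels do not tie replicate numbers to cages or litters. Replicates differed by more than sampling noise in all 120 pairs (lowest chi-square per degree of freedom 14.8).

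Counts were tested in R 4.3.3 with edgeR 4.0.16 (quasi-likelihood, TMM, filterByExpr, trended dispersion), as cell means of treatment, time and sex over all 80 libraries. The p-values were adjusted by Benjamini-Hochberg over all genes tested, and calls required an adjusted p under 0.05. CPM values are TMM-scaled, SEs are those of the log2 effect, and log2 CPM had a prior count of 2. Rhythms were fitted with a period of 24 h, and exon usage with diffSpliceDGE. The tests were tried on simulated data first. Named list genes were the called genes with the largest effect, up to 4 a list, all FOXO-activated and insulin-induced genes, and 3 genes most like Insr, Irs1, Irs2 and Foxo1. A gene of these lists is not reported here and is left out of their counts. Alternatives were DESeq2 size factors, filters (none, or 10 counts in every library), limma 3.58.1, DESeq2 1.42.0, single sexes, a replicate block, and leaving out replicates or single libraries.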

Additional observations from a re-analysis of the deposited data

Results flagged for a closer look

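In 7 of 200 groups of 4 livers, a single liver stood apart from the other 3 in a member's CPM, with a gap to the nearest liver, as a share of the group's range, above Dixon's critical value for 4. Chance gives about 1 in 20 such groups, or 10 of 200. For Insr, fasted CT24 male 1 held 265 CPM against 220 to 223 (gap 0.944 of the range). For Pik3r1, control CT8 female 1 held 177 CPM against 78 to 83.6 (0.916), and fasted CT40 female 2 held 34.7 against 51.4 to 54.5 (0.873). For Akt1, control CT20 male 2 held 49.7 CPM against 63.6 to 65 (0.922), and fasted CT44 female 1 held 73.2 against 51.4 to 54.3 (0.847). For Akt2, control CT28 female 2 held 90.8 CPM against 100 to 101 (0.942), and for Foxo1, control CT16 female 1 held 62.1 against 35.2 to 36.6 (0.929).

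The fasting effect differed between the sexes, by a test of the difference itself, in Grb10 (0.81 on the log2 scale, female minus male) and in Insr (-0.17). It differed between times in Insr (adjusted p = 0.00105), Irs2 (1.5e-05), Pik3r1 (0.000337), Akt1 (0.0126), Foxo1 (5.32e-05) and Foxo3 (0.00533). The 24 h rhythm differed between fed and fasted livers in Insr (adjusted p = 0.000133), Irs2 (0.000125), Pik3r1 (0.0201), Akt1 (0.00703), Foxo1 (0.0132) and Foxo3 (0.0238). The causes were not tested.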

How the results depend on the processing

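The mean fasting effects of Insr, Irs2, Pik3r1, Akt1, Akt2, Foxo1, Grb10 and Grb14 kept their direction and call in all 13 alternatives, among them a fit without fasted CT40 female 2 that was chosen after seeing the data. The effect of Irs2 stayed between 1.55 and 1.70, that of Insr between 0.31 and 0.48 and that of Foxo1 between 0.63 and 0.88. The median effect of all genes stayed between -0.03 and -0.01. Leaving out 1 replicate at every time, which leaves 3 livers per group, gave 26 to 37 called pairs of member and time (25717 to 42287 over all genes, against 48836), 0 to 1 members at CT8 (0 to 2123 of all genes, against 282), 1 to 6 members with an effect changing over time (1186 to 7051 of all genes, against 7130), 1 to 4 with a sex difference of the effect (238 to 2473, against 2621), 2 to 6 with a rhythm difference (2635 to 3603, against 4858) and 1 to 2 with exon usage (1103 to 1479, against 1986). At CT8 all genes called numbered 853 with no filter, 4 with limma-voom, 556 with DESeq2, 0 with the CT8 livers alone and 11 without control CT8 female 2. The sex difference was called in 4 members with at least 10 counts in every library and in 4 with DESeq2, and in 1 without fasted CT40 female 2. Fed rhythms were called in 5104 genes in males alone and 4692 in females alone, against 8417, and exon usage in 950 genes with at least 10 counts per bin. The results whose direction reversed, not called with all livers apart from Sesn1, were the mean effect of Irs1 (-0.09 to 0.03 with 1 replicate left out, 0.16 in males alone), of Sesn1 (-0.02 in males alone), of Bcl6 (0.31 in females alone, against -1.02 in males alone) and of Apoc3 (0.09 in males alone, called with an adjusted p of 0.0314); the sex difference of the effect of Pik3r1 (0 with DESeq2 size factors and with DESeq2, -0.08 to 0.1 with 1 replicate left out, 0.03 without fasted CT40 female 2) and of Foxo3 (-0.01 to 0.14 with 1 replicate left out); and the sex difference in fed livers of Pik3r1 (-0.04 to 0.2) and of Foxo1 (-0.15 to 0.05), both with 1 replicate left out. The causes were not tested.

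Replicate numbers did not pair the livers: the correlation of deviations was over 0.1 in 1 of 18 pairs of groups (-0.06 to 0.25, median 0). With the replicate block 8 members were called in the mean (12866 of all genes), 37 pairs at single times, 0 members at CT8 (1 of all genes), 6 over time, 2 for the sex difference, 9 and 7 for fed and fasted rhythms, 6 for their difference and 2 for exon usage without CT40. The members were not the same for the sex difference, where the block lost Insr (-0.17, adjusted p = 0.0999) and gained Irs1 (-0.4, 0.0342). At single times it ended the calls of Insr at CT28 (adjusted p = 0.0727), Akt2 at CT20, CT28 and CT32 (0.0545, 0.0541 and 0.0836), Foxo3 at CT24 (0.0698) and Grb10 at CT16 and CT32 (0.0602 and 0.0559), and in the mean that of Sesn1 (0.18, 0.238). Why these calls were lost was not tested, and some of them, such as those of Akt2, were also lost with a replicate left out.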
